A study of Mus musculus with 18 samples.

Results

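Merging the H3K9ac peaks of 8 libraries wherever they overlapped by at least 1 bp gave 104737 regions, and 265 of these (0.253%) had a peak in 3 or 4 more Vehicle lists than TSA lists. The 265 regions, less often occupied after TSA, were selected by the presence of peaks alone. Of them, 21 had a peak in 4 Vehicle and 0 TSA lists, 69 in 4 Vehicle lists and 1 TSA list, and 175 in 3 Vehicle and 0 TSA lists. Their difference in occupancy is what selected them, so it is described here without a test. The opposite difference, 3 or 4 more TSA than Vehicle lists, was found in 1776 regions (1.70%).

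Every library came from cortex of mouse embryos at embryonic day E15.5 that carried a conditional knockout of BAF155 (labelled BAF155 cKO), so the deletion is shared by both groups and cortex with intact BAF155 was not analysed here. The groups were Vehicle and TSA, the latter given trichostatin A, with 4 H3K9ac libraries and 4 RNA libraries in each. The labels name neither the Cre driver nor the dose, and do not say whether replicates were separate embryos, and a p-value here therefore reflects only how much these samples vary, which may be technical variation. By its title the study is about histone H3 acetylation, basal progenitors and Trnp1. Smarcc1, the gene of BAF155, had 124 to 148 CPM (reads of a gene scaled by library size) in the Vehicle and 118 to 144 CPM in the TSA libraries, and counts summed over the whole gene do not check the deletion.

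Acetylation of lysine 9 on histone H3 marks the promoters and enhancers of active genes, where acetyltransferases add the group and histone deacetylases remove it. TSA inhibits deacetylases of class I and II, and BAF155 is among the core subunits of BAF complexes (the mammalian SWI/SNF remodellers), which move nucleosomes. In the embryonic forebrain the cortex makes excitatory neurons, while the ganglionic eminences below it make GABA neurons under homeodomain factors of the Dlx and Gsx families, and some of these GABA neurons migrate into the cortex.

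Where regions of the set reached an annotated gene start, promoter sequences show the letters there. In all, 30 members overlapped 39 promoter windows of 34 genes, each window running from 250 bases before to 50 bases after a start, with sequences and coordinates from RefSeq on GRCm38.p6 (the assembly known as mm10). Printed below, 5′ to 3′ in the gene's direction, are the starts of 3 genes whose RNA fell (Dlx6os1, Sp9, Tnfaip6) and 2 whose RNA rose (Tiam2, Taok2). Capitals mark 3 motifs that were searched on both strands. These are the core of many homeodomain sites, TAATTA, and a pair of E-boxes, which are sites of bHLH factors. One E-box reads CAGATG and the other reads CAGCTG.

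Dlx6os1 (chr6:6869484-6869783, minus strand): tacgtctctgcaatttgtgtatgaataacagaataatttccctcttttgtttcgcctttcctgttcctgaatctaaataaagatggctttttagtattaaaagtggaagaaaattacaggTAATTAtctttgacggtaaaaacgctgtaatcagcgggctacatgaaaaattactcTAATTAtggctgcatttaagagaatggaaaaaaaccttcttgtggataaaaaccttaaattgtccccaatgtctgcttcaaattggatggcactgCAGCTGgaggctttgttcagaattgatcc
Sp9 (chr2:73271676-73271975, plus strand): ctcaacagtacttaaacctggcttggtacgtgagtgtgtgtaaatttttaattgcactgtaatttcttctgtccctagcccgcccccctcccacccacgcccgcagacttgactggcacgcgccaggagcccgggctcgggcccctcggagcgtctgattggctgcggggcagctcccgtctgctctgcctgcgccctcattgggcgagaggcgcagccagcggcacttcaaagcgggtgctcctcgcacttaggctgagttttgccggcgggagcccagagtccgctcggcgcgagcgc
Tnfaip6 (chr2:52037863-52038162, plus strand): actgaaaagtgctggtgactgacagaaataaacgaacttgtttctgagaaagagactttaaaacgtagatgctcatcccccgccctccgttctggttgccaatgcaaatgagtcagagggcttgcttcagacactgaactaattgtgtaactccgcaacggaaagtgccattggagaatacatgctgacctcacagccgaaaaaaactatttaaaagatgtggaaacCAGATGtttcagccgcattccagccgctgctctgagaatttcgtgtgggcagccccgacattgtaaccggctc
Tiam2 (chr17:3482065-3482364, plus strand): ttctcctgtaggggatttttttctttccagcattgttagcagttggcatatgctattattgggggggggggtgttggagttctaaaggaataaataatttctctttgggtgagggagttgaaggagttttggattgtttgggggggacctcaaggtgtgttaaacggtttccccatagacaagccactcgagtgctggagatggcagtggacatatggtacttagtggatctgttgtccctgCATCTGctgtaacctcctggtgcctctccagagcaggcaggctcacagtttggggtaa
Taok2 (chr7:126884918-126885217, minus strand): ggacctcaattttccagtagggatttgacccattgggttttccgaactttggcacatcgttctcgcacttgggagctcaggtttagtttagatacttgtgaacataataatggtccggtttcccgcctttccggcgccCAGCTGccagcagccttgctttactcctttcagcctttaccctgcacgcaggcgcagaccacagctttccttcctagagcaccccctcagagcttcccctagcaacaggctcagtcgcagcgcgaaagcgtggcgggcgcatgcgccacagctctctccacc

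The Dlx6os1 member, chr6:6867638-6869513, covered 30 bases of its window, at the 3′ end, and the Sp9 member covered 21. These 2 members began 20 and 29 bp beyond the start. The Dlx6os1 window held 2 copies of TAATTA, both outside the member, and 1 of CAGCTG inside it. The Taok2 window lay entirely inside its member, the Tnfaip6 window shared 197 bases and the Tiam2 window 176.

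Windows of neighbouring starts can overlap and then hold the same site, so distinct sites are given beside the share of windows. TAATTA was in 3 of the 39 windows (7.69%) with 3 sites at 2 members, against 5.29% of all 32851 windows in the table and 2.08% of those under regions in all 8 lists. CAGATG was in 17.9% (6 sites, 17.2% and 10.3%) and CAGCTG in 12.8% (4 sites, 16.3% and 14.2%). TGACGTCA, the cAMP response element, was in 10.3% (1.79% and 3.41%), but its 4 windows were 2 divergent pairs, each sharing 1 site, and neither site lay inside a member. GCCCCGCCC, bound by SP and KLF factors, was in 20.5%, between 10.98% of all windows and 21.5% of those under regions in all 8 lists. The ETS motif CCGGAAG was in 10.3% (8.86% and 20.7%), the SOX motif ACAAAG in 10.3% (18.7% and 12.8%), the AP-1 motif TGANTCA in 5.13% (7.81% and 3.88%) and the octamer ATGCAAAT in 2.56% (1.74% and 1.08%). CCACGTG (3.88% and 5.10%) and the NFI motif (0.0365% and 0.011%) were in none. The median GC content was 58.3% in the 39 windows, 52.7% in all windows and 62.0% in windows under regions found in all 8 lists, and the shares above were not matched for base composition. A match describes letters in the window and does not show that a factor binds there.

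The lists behind the set differed in length in a way that sequencing depth did not order. Vehicle 1 to 4 had 41987, 41331, 43645 and 22668 peaks, and TSA 1 to 4 had 46714, 53285, 32248 and 61217. Vehicle 4 had the fewest peaks but the most tags, 24075842, where Vehicle 1 to 3 had between 11824246 and 15890014 tags and the TSA libraries between 15365856 and 19920755. Peaks per list averaged 37408 ± 9875 in Vehicle and 48366 ± 12273 in TSA (SD, n = 4 each), a difference within the spread of libraries (two-sided exact permutation test, p = 0.229, with 0.0286 the smallest p possible).

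**Figure D1:**
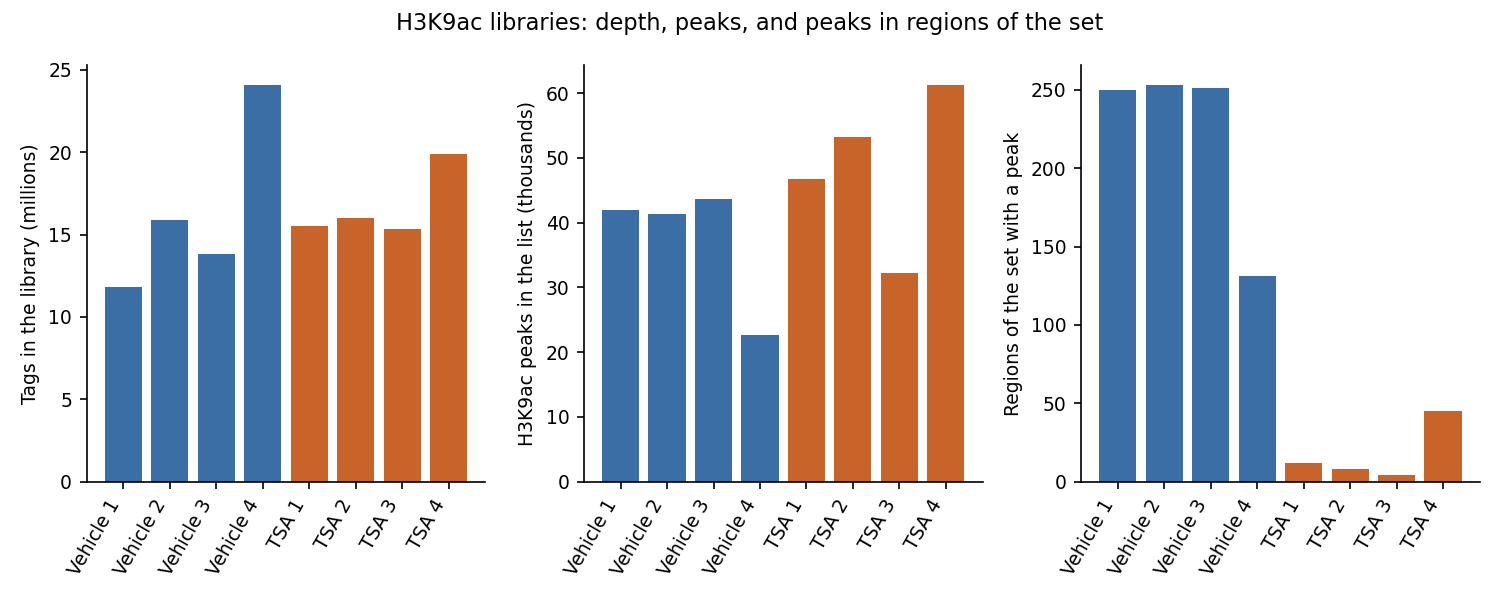
Tags, H3K9ac peaks and regions of the set with a peak in each library (1 bar per library, Vehicle blue, TSA orange, all axes from 0). Vehicle 4 had the most tags and the fewest peaks, and held a peak in 131 of the 265 regions, where the other Vehicle libraries held 250 to 253.

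The short list of Vehicle 4 and the long list of TSA 4 stood out in the patterns of the set. Vehicle 4 was the missing library in 134 of the 175 regions with 3 Vehicle and 0 TSA lists, and TSA 4 was the single TSA library in 45 of the 69 regions with 4 Vehicle lists and 1 TSA list. Members held a peak in 12, 8, 4 and 45 regions in TSA 1 to 4. Their peaks were weak to moderate for their lists. When peaks were ranked by −log10 q from 0 (weakest) to 100, the median member stood at 36.9, 39.8, 41.4 and 24.9 in Vehicle 1 to 4. Its median fold enrichment over the local background, as the authors' peak caller gave it, was 4.66, 4.82, 5.06 and 4.39, against medians of 5.18, 5.26, 5.52 and 5.0 for whole lists.

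The same rule was applied to equal lists, the 22668 peaks of highest −log10 q in each library. It then found 382 of 37936 regions (1.01%) less often occupied in TSA and 509 (1.34%) more often. Only 34 of the 265 members (12.8%) overlapped one of the 382, and these were 8.90% of the 382. The 34 comprised 10 of the 21 regions with 4 Vehicle and 0 TSA lists, 15 of the 69 with 4 and 1, and 9 of the 175 with 3 and 0. Members at Pax6, Gsx2, Sp9, Dlx1, Dlx6os1, Tnfaip6, Tiam2 and Sox2 were among the 34. Leaving Vehicle 4 out raised the number of members to 625 and leaving TSA 4 out raised it to 619, while it was 146, 147 and 140 without Vehicle 1, 2 and 3. With peaks merged across gaps of up to 500 bp it was 140.

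The regions were narrow, with a median width of 406 bp (208 to 2056 bp), against 1135 bp for regions in all 8 lists. The 21 regions with 4 Vehicle and 0 TSA lists were 571 bp wide at the median, those with 3 and 0 were 379 bp, and the 1977 regions just outside the rule, with a difference of 2 lists, were 324 bp. Within 2 kb of a gene start lay 26.8% of members, 24.4% of the opposite regions and 27.3% of all regions, whereas 73.1% of the regions in all 8 lists did. Outside genes and away from their starts lay 28.3% of members, against 17.5% of opposite regions, 17.8% of all regions and 18.2% of regions in 3 to 5 lists. For the 382 regions found on equal lists, most of which overlapped no member, the share within 2 kb of a start was 49.5% and that outside genes 17.3%. These shares thus depended on which peaks were counted. The same shares over all 37936 regions of the equal lists were not taken.

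Apart from the 21 with 4 Vehicle and 0 TSA lists, members often sat beside domains present in both groups. A region present in all 8 lists lay within 2 kb of 35.5% of members, 20.8% of opposite regions and 25.7% of regions in 3 to 5 lists. By pattern the share was 14.3% of members with 4 Vehicle and 0 TSA lists, 42.0% with 4 and 1, and 35.4% with 3 and 0. Members also grouped: 44 of the 265 lay within 50 kb of another, in 19 groups, and the group with the most members was at the Dlx5 and Dlx6 genes. Other groups of 3 lay upstream of Pax6, at the histone genes H4c3, H1f2 and H1f1 on chromosome 13, in Gse1, and in a stretch of 4.68 kb on chromosome X far from annotated starts. Chromosome Y held 0 members and chromosome X held 4.

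At the Dlx5 and Dlx6 locus on chromosome 6, 4 members lay within 15.7 kb. Dlx5 and Dlx6 encode homeodomain factors of the ganglionic eminences, and Dlx6os1 (Evf2) is a long noncoding RNA transcribed across Dlx6 from the opposite strand. The widest member, chr6:6867638-6869513, overlapped both Dlx6 and Dlx6os1, and had a peak in 4 Vehicle lists and in TSA 1. Further members were chr6:6857595-6858491 (4 Vehicle lists and TSA 4), chr6:6872025-6872292 (Vehicle 1 to 3 only) and chr6:6872622-6873290 (4 Vehicle lists and TSA 3). All 4 lay between regions occupied in all 8 lists, of which the locus had 5, 1704 to 4400 bp wide.

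The length under peaks within 20 kb of a gene's start shows the same loci without the merging. Around the start of Dlx6os1, peaks covered 19.8, 23.4, 22.9 and 15.9 kb in Vehicle 1 to 4 and 6.78, 5.82, 4.54 and 12.3 kb in TSA 1 to 4. The groups did not overlap. Over the whole genome, Vehicle 4 had the smallest total length of peaks, 8.16 Mb, and TSA 4 the largest, 26.3 Mb. These lengths come from the same peaks as the rule and carry no test. Less length in TSA at loci with members partly follows from how the loci were chosen.

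**Figure D2:**
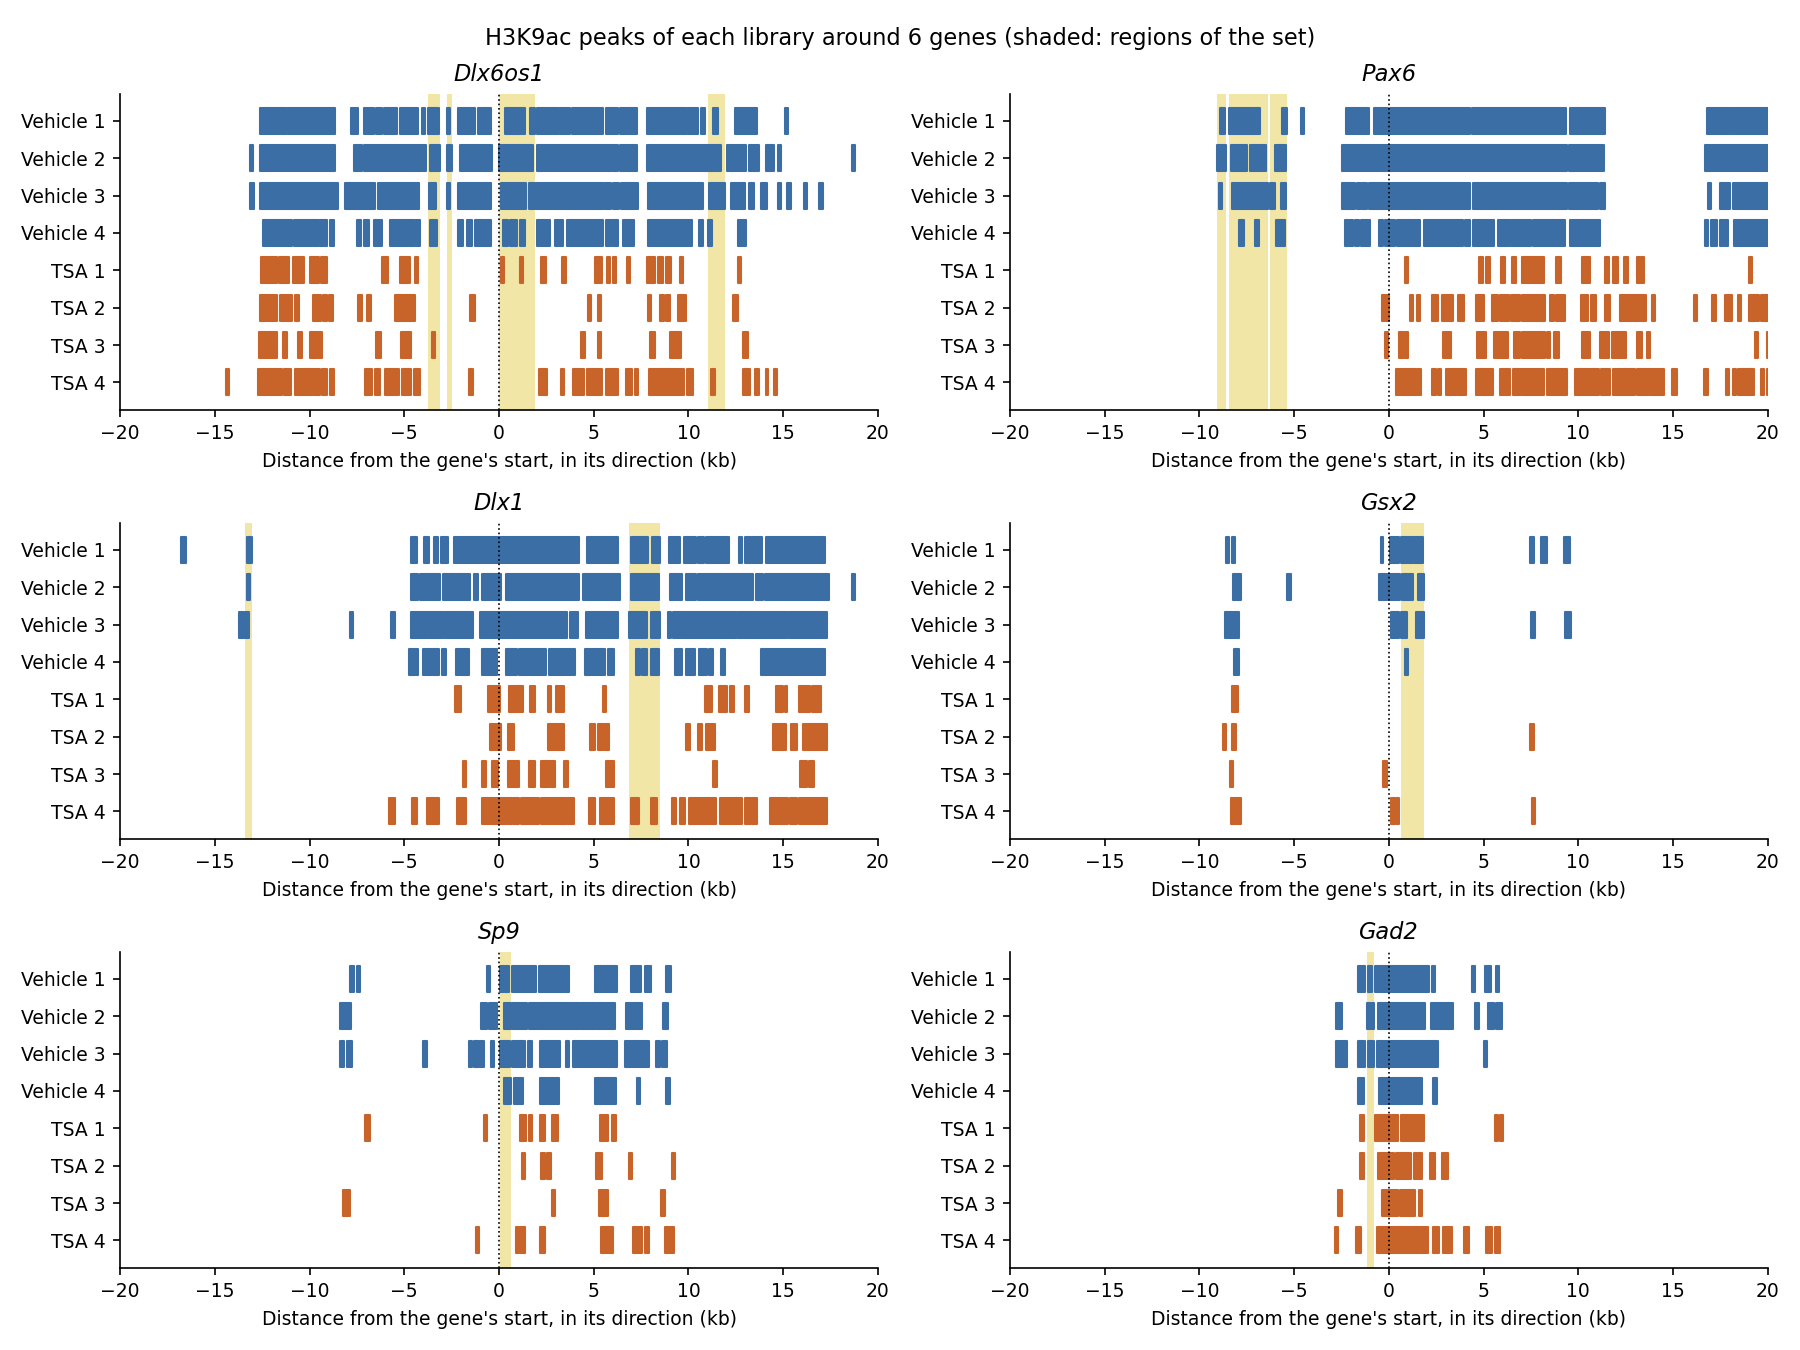
H3K9ac peaks of each library (bars, Vehicle blue, TSA orange) against distance in kb from the start of 6 genes, in the direction of the gene, with regions of the set shaded. Around Dlx6os1 the 4 shaded regions held a peak of TSA 4, TSA 1 and TSA 3 in 1 region each and of no TSA library in the last, and upstream of Pax6 no TSA library had a peak between −9.05 and −5.40 kb.

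Dlx1, whose homeodomain product acts with that of the neighbouring Dlx2 in the ganglionic eminences, had a member 6.88 to 8.49 kb beyond its start (chr2:71536324-71537937). Its fold enrichment was 8.45, 10.51, 11.03 and 6.23 in Vehicle 1 to 4, and 5.01 in TSA 4, the only TSA library with a peak there. Peaks within 20 kb of the Dlx1 start covered 18.2, 19.5, 20.3 and 13.6 kb in Vehicle and 5.40, 5.56, 3.65 and 14.3 kb in TSA. TSA 4 here lay above Vehicle 4, so the groups overlapped in that 1 library. A weaker member lay 13.1 to 13.4 kb before the start, within Metap1d, in Vehicle 1 to 3 only.

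Gsx2, a homeobox gene of lateral ganglionic eminence progenitors, had a member from 0.63 to 1.86 kb beyond its start (chr5:75076233-75077456), inside the gene. It had a peak in all 4 Vehicle lists, at fold enrichments of 7.77, 7.01, 6.44 and 4.39, and in 0 TSA lists. Sp9, which encodes a zinc finger factor of GABA neuron precursors, had one that began 29 bp beyond its start (chr2:73271955-73272549), at 6.22, 4.85, 5.64 and 4.53 in Vehicle and in 0 TSA lists. Gad2, which encodes the GABA-synthesising enzyme GAD65, had a member (chr2:22621156-22621533) in Vehicle 1 to 3 only. It lay 0.79 to 1.17 kb before the start used for linking, but inside the annotated gene, whose span begins at 22621015. A region of 4092 bp that all 8 lists held lay next to it. Peaks within 20 kb covered 1.93 to 4.74 kb in TSA and 2.82 to 5.17 kb in Vehicle around Gad2, which overlapped, and 1.14 to 2.73 kb in TSA against 3.23 to 8.16 kb in Vehicle around Sp9, which did not.

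Pax6, a paired-box gene of cortical apical progenitors, had 3 members upstream, spanning 3.65 kb. The middle one, chr2:105660439-105662494, was the widest of the 265 regions and overlapped the noncoding genes Paupar and Pax6os1. Its −log10 q was 9.77, 12.8, 17.8 and 3.84 in Vehicle 1 to 4, and no TSA library had a peak there. The neighbours were chr2:105662633-105663494 (4 Vehicle, 0 TSA lists) and chr2:105659844-105660313 (Vehicle 1 to 3 only). Within the gene, 11.8 to 14.5 kb beyond the start, a region of 2748 bp had the opposite pattern, with a peak in 0 Vehicle and 4 TSA lists. Between these lay regions of 11846 and 2190 bp present in all 8 lists, within which the TSA peaks were broken into shorter stretches, as the map of peaks shows. In all, peaks covered 18.5, 19.7, 18.4 and 14.9 kb around the Pax6 start in Vehicle and 4.09, 9.79, 6.48 and 12.7 kb in TSA, with no overlap between groups.

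**Figure D3:**
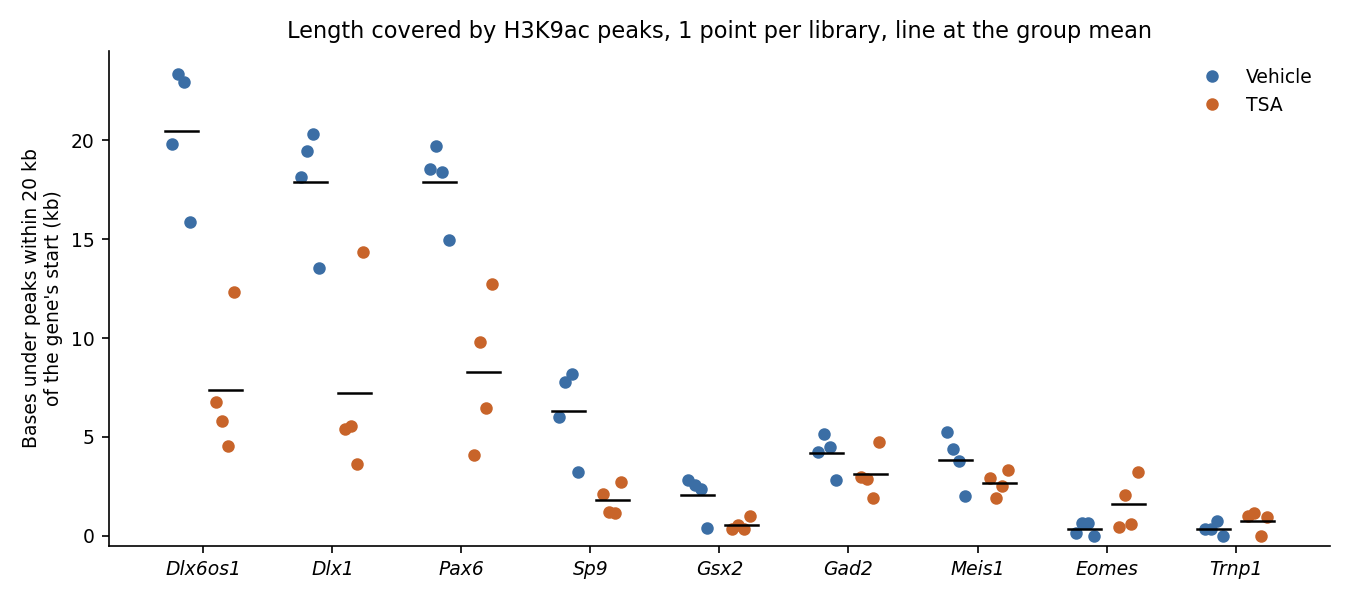
Length under H3K9ac peaks (kb) within 20 kb of the start of 9 genes, 1 point per library (Vehicle blue, TSA orange) and a line at each group mean. Groups were apart at Dlx6os1, Pax6 and Sp9 and overlapped at the other 6, of which Eomes and Trnp1 have no member within 10 kb.

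Other regions with 4 Vehicle and 0 TSA lists lay at Tiam2 (chr17:3482189-3484005), a Rac guanine nucleotide exchange factor, where 1817 bp covered an internal start, and at Tnfaip6 (chr2:52037966-52038389), a secreted hyaluronan-binding protein. One lay in Ccn1, which encodes a secreted matrix protein (chr3:145648380-145648750). A pair lay on chromosome X (chr X, 93281584 to 93282185 and 93282248 to 93282752) and another pair near the end of chromosome 9 (chr9:124256291-124256947 and chr9:124257483-124257952), both far from annotated coding genes. The chromosome 9 pair had low fold enrichments, 2.13 to 3.26, beside a median −log10 q of 7.44 and 6.53, unlike the 6.44 to 7.77 fold of Gsx2 in Vehicle 1 to 3.

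RNA from other libraries of the same groups gave a measure that the rule did not use. A member lay within 10 kb of the nearest start for 140 of the 265 regions, which named 130 genes. Of these, 108 matched a symbol of the count files, and 88 of the 108 passed the count filter and were tested. With edgeR and Benjamini-Hochberg adjustment over 15000 genes, RNA of 25 of the 88 fell (28.4%) and that of 12 rose (13.6%), while 17.6% of all tested genes fell and 15.4% rose. The median log2 fold change (TSA minus Vehicle) was −0.17, against −0.01 for all tested genes, and 53 of the 88 lay below 0. Genes near opposite regions showed the reverse, with 43 of 549 falling (7.83%), 171 rising (31.1%) and a median of 0.16.

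**Figure D4:**
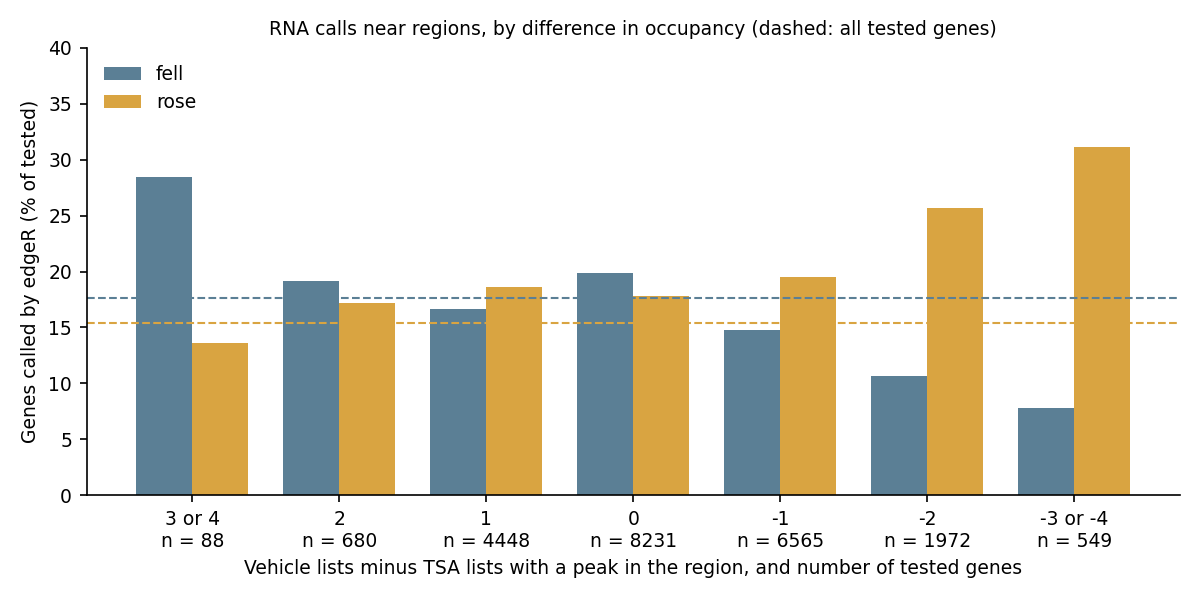
Percentage of tested genes whose RNA fell or rose (edgeR, adjusted p under 0.05) by the difference in occupancy of the region within 10 kb of their start, where a gene can enter several classes. Falls made up 28.4% at a difference of 3 or 4 and 7.83% at −3 or −4, and rises 13.6% and 31.1%, around dashed lines for all tested genes at 17.6% and 15.4%.

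At a difference of 2 lists, just outside the rule, 19.1% of 680 genes fell and 17.2% rose, near the shares over all genes. Among members, falls were most frequent for the pattern of 4 Vehicle and 0 TSA lists, with 5 of 9 genes, and for members also found on equal lists, with 6 of 13. Genes near the remaining members had 21 falls and 11 rises among 78. The 382 regions found on equal lists gave 50 falls (27.9%) and 22 rises (12.3%) among 179 genes. The split was different where a member lay anywhere in a gene's body, since 28 of 148 such genes fell (18.9%) and 36 rose (24.3%), with a median of −0.00. Their median span was 59.0 kb, against 26.1 kb for genes near starts and 24.2 kb for all tested genes. The slope of log2 CPM, relative to each gene's mean, on log10 span was −0.158, 0.047, −0.071 and −0.199 in Vehicle 1 to 4. In TSA 1 to 4 it was 0.083, 0.116, 0.155 and 0.028. The part of gene length in this split was not tested. The median near starts also moved with the H3K9ac libraries used. It was 0.02 without Vehicle 1 and 0.01 without TSA 4, with falls of 10 among 45 and 51 among 255 genes, and −0.02 without Vehicle 4, with 52 falls among 243.

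The RNA groups also differed in sex-linked transcripts. Xist, the noncoding RNA of the inactive X chromosome, had 1768 to 3118 CPM in Vehicle, 0.305, 1.47 and 0.494 CPM in TSA 1 to 3 and 2327 CPM in TSA 4, and the Y-linked Ddx3y was at 38.4 to 56.3 CPM in TSA 1 to 3 and at most 1.22 CPM in the other 5 libraries. TSA 4, with Xist at the Vehicle level, lay below all 4 Vehicle libraries in 23 of the 25 genes that fell and above all of them in 12 of the 12 that rose. The calls used TSA 4 as well, so these counts partly follow from the calls. The same counts were not taken over all called genes. Xist was high in all 4 Vehicle libraries and, of the TSA libraries, in TSA 4 only, so its level was nearly confounded with treatment. With the Xist level as a covariate, the contrast therefore rested largely on TSA 4. A call lost in this setting does not tell sex-linked differences from treatment. With this covariate, edgeR called 10 falls and 6 rises among the 88, and 773 falls and 727 rises in all.

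The log2 change was below −1 in 6 of the 25 genes that fell. The same share over all 2640 called falls was not taken. Of the 6, 4 genes (Dlx6os1, Dlx1, Gsx2 and Sp9) belong to the list of ganglionic eminence and GABA neuron genes, beside Pax6 and Tnfaip6. In Vehicle 1 to 4, Dlx6os1 RNA stood at 324, 308, 351 and 409 CPM, and in TSA 1 to 4 at 65.2, 76.4, 102 and 93.4 CPM. Every TSA library lay below every Vehicle library, and the fitted log2 change was −2.04 with a standard error of 0.14 (4 libraries per group, edgeR adjusted p = 7.4e-07). RNA counting was unstranded, so reads of Dlx6os1 and of Dlx6, which it overlaps, cannot be told apart.

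For Dlx1 the Vehicle libraries gave 453, 424, 499 and 497 CPM and the TSA libraries 170, 191, 249 and 227 CPM, with no overlap (log2 change −1.16 ± 0.12, edgeR adjusted p = 2.6e-05). Gsx2 was a rarer transcript at 10.6, 12.1, 9.71 and 8.15 CPM in Vehicle and 0.914, 2.09, 2.42 and 3.001 CPM in TSA, again with no overlap (−2.18 ± 0.24, adjusted p = 4.2e-05). Levels of Sp9 were 33.8, 48.0, 55.1 and 41.2 CPM in the Vehicle libraries and 14.9, 16.5, 19.4 and 20.1 CPM in those given TSA (−1.32 ± 0.15, adjusted p = 4.9e-05). All 3 genes kept the call in 18 of 18 alternative settings of the RNA test, as did Dlx6os1. Gad2 fell as well, from 176 ± 22.4 to 99.6 ± 22.6 CPM (SD, n = 4), with a log2 change of −0.82 ± 0.14 (adjusted p = 0.00082, and 0.0687 with the Xist covariate).

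Other Dlx genes at these loci also fell. They were not among the 88, since each region was linked to its nearest start only and Dlx5 and Dlx6 had no start to link, but members lay 4.51 kb from the end of Dlx5 and 5.47 kb from that of Dlx2. Dlx5 fell from 38.9 ± 7.73 to 15.7 ± 4.50 CPM and Dlx2 from 81.7 ± 11.9 to 43.7 ± 12.95 CPM (SD, n = 4), with edgeR adjusted p of 0.00024 and 0.0017. Dlx6, whose body overlaps a member, fell from 22.8 ± 3.19 to 9.50 ± 4.40 CPM (adjusted p = 0.0028). With the Xist covariate the call of Dlx5 held, while Dlx2 and Dlx6 had adjusted p of 0.206 and 0.153. Slc32a1, which encodes the vesicular GABA transporter and holds a member 3.21 kb beyond its start, fell from 32.8 ± 11.8 to 19.6 ± 3.09 CPM (adjusted p = 0.0208), although TSA 4 at 23.1 CPM lay above Vehicle 1 at 21.5. The adjusted p of Slc32a1 was 0.0606 and 0.0805 without Vehicle 3 or 4, 0.0575 and 0.0631 without TSA 1 or 2, and 0.367 with the Xist covariate. Meis1, a homeobox gene with a pair of members 1.995 and 2.498 kb beyond its start in Vehicle 1 to 3, fell from 23.8 ± 5.27 to 13.2 ± 1.59 CPM (adjusted p = 0.0013, and 0.0820 with the Xist covariate).

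Of the list of 25 ganglionic eminence and GABA neuron genes, 15 fell and 3 rose, with a median log2 change of −0.89. The 3 that rose were Lhx6, Lhx8 and Nkx2-1, while Gsx1, Isl1, Sst, Npy, Six3, Meis2 and Zic1 were not called. A member was linked to 5 of the 21 genes of the list with a start, and all 5 fell. An opposite region lay within 10 kb of the start in 0 of the 21. The summed level of the list was 2253 to 2743 CPM in Vehicle and 1364 to 1795 CPM in TSA, with no overlap. In whole tissue, fewer cells of a type and less RNA per cell cannot be told apart, and the same holds for peaks. Striatal neuron genes, another list for cells below the cortex, had 10 of 15 falling and 2 rising. Their summed levels were 433 to 845 CPM in Vehicle and 561 to 685 CPM in TSA. A member was linked to 0 of the 11 with a start, but members overlapped the bodies of Zfp503, which fell, and Bcl11b, which rose. The part of such cells in the difference was not tested.

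Lists for other cells and for RNA composition fell beside them with 0 linked members. All 17 oxidative phosphorylation genes fell, at summed levels of 1460 to 2344 CPM in Vehicle and 984 to 1042 CPM in TSA, and 11 of 17 ribosomal protein genes, at 2592 to 3770 and 1731 to 1967 CPM. Of the tested genes of blood and meninges, 3 of 10 erythroid genes fell (346 to 646 against 229 to 259 CPM), 7 of 14 microglial genes (69.4 to 89.999 against 49.9 to 64.8 CPM) and 5 of 11 mesenchyme genes (230 to 317 against 168 to 211 CPM). These 5 summed levels did not overlap between groups, and 0 genes of these lists rose. The endothelial list, with 2 of 11 falling, overlapped at 164 to 261 and 182 to 219 CPM. Their part in the falls near members was not tested.

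The list that defines the labelled tissue went the other way. All 10 cortical identity genes were detected, 9 rose and 0 fell, and their summed level was 1781 to 2559 CPM in Vehicle and 3095 to 3686 CPM in TSA. A member overlapped the body of Bcl11b but was not linked to its start. Lhx2, a LIM homeobox gene of the dorsal forebrain, was the only one of the 8 with a start that had a linked member within 10 kb of it (chr2:38359812-38360227), in 4 Vehicle lists and TSA 4. Its RNA level was 217, 221, 161 and 150 CPM for Vehicle and 260, 245, 237 and 284 CPM for TSA. Every TSA library was above every Vehicle library, and the rise was 0.45 ± 0.13 (edgeR adjusted p = 0.0125), with adjusted p = 0.0683 under the Xist covariate.

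The Vehicle libraries held 323, 381, 250 and 301 CPM of Pax6 RNA, and the TSA libraries 99.99, 103, 104 and 123 CPM. The highest TSA library was below the lowest Vehicle library, and the log2 change was −1.54 ± 0.12 (edgeR adjusted p = 2.5e-06), between −1.64 and −1.34 over the 18 alternatives. The antisense Pax6os1 was near the limit of detection at 1.65 ± 0.727 and 0.837 ± 0.258 CPM (SD, n = 4, adjusted p = 0.0844). Sox2, a further apical progenitor gene, had a member 8.72 kb before its start (chr3:34640649-34641278) in 3 Vehicle lists, and 102 ± 23.5 against 76.9 ± 12.9 CPM, which did not pass (adjusted p = 0.066). It passed without Vehicle 1 (0.0214), without TSA 4 (0.0462), with the replicate as a block (0.0162) and with no count filter (0.0022). On the list of 19 apical progenitor genes, 12 rose and 2 fell, and of the 16 with a start only Pax6 and Sox2 had a member near it.

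**Figure D5:**
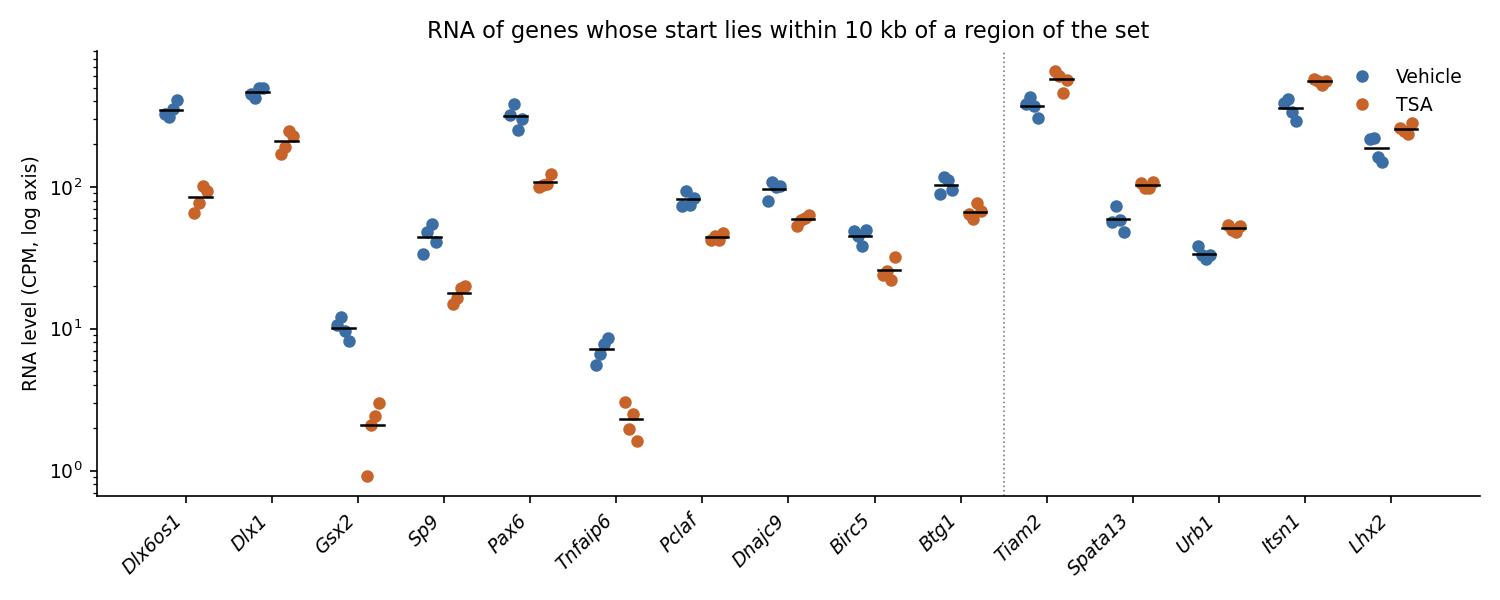
RNA level in CPM (log axis) of 15 genes with a member within 10 kb of their start, 1 point per library (Vehicle blue, TSA orange) and a line at each mean, with the genes that fell left of the dotted line and those that rose right of it. In all 15 the TSA libraries lie apart from the Vehicle libraries. The genes were chosen by small p in these libraries, so this partly follows from the choice.

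Tnfaip6 was at 5.57, 6.64, 7.85 and 8.63 CPM in Vehicle and 3.05, 1.98, 2.52 and 1.63 CPM in TSA, without overlap (log2 change −1.69 ± 0.23, edgeR adjusted p = 0.00013). Some genes of dividing cells near members also fell and others were not called. Those without a call included Cdca5, Cit, E2f7, Racgap1 and Spdl1 (edgeR adjusted p of 0.0583, 0.688, 0.376, 0.243 and 0.742). Pclaf, a PCNA-binding replication factor with a member 0.88 kb beyond its start, went from 81.5 ± 9.55 to 44.1 ± 2.38 CPM (adjusted p = 4.2e-05). Birc5, which encodes the mitotic protein survivin, went from 45.3 ± 5.16 to 26.0 ± 4.42 CPM (adjusted p = 0.00037, and 0.1003 with the Xist covariate). Ect2, a cytokinesis factor, went from 73.1 to 55.6 CPM (adjusted p = 0.0443), with adjusted p of 0.108, 0.0740, 0.147, 0.102 and 0.0653 without Vehicle 2 or 3 and TSA 1, 2 or 3. It was 0.573 with the Xist covariate, where the log2 change was −0.22, 0.0521 with RLE scaling factors and 0.0599 with limma-voom. The members at Pclaf and Birc5 had a peak in Vehicle 1 to 3 only. On the cell cycle list 10 of 22 genes fell, 1 rose (Mki67) and the rest were not called. Of the 16 with a start, Birc5 was the only one with a member within 10 kb of it.

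Dnajc9, a histone chaperone gene, fell by 0.72 ± 0.10 and Btg1, an antiproliferative gene, by 0.63 ± 0.11 on the log2 scale (edgeR adjusted p = 0.00019 and 0.00059). Emp2, which encodes an epithelial membrane protein and has a member over its start, fell from 10.4 ± 0.985 to 6.18 ± 1.45 CPM (adjusted p = 0.0049). Further falls were in Rnd3, F11r, Dll4, Myt1, Nlk, Map1lc3b, Rnf2, Prkrip1, Tbp and Ccdc77, with log2 changes from −0.72 to −0.31. With the Xist covariate none of these 10 passed. Without 1 library, Dll4 had adjusted p up to 0.112 (Vehicle 2 or 4, TSA 1, 2 or 4), Ccdc77 up to 0.0891 (any library but Vehicle 2), and Rnf2 and Tbp 0.0577 and 0.0681 (TSA 1). All 4 TSA libraries lay below all 4 Vehicle libraries in 22 of the 25 genes that fell. Over all 15000 tested genes, called or not, 2616 were apart in this way, beside 2640 called falls. The number apart among the called falls alone was not taken, so the 22 of 25 has no matching share.

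The 12 rises were smaller, and 0 had a log2 change above 1. The same share over all 2314 called rises was not taken. Spata13, a guanine nucleotide exchange factor gene, stood at 56.2, 72.8, 58.6 and 48.4 CPM for Vehicle and 107, 98.4, 98.1 and 108 CPM for TSA, and rose by 0.80 ± 0.11 (edgeR adjusted p = 0.00016). Tiam2, with a region of 4 Vehicle and 0 TSA lists over an internal start, stood at 385, 428, 369 and 306 CPM for Vehicle and 655, 605, 460 and 565 CPM for TSA. Its groups did not overlap and the rise was 0.62 ± 0.13 (adjusted p = 0.0019), with adjusted p = 0.0746 under the Xist covariate. Counts per gene do not separate transcripts from the internal start from those of the full gene.

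Urb1, a ribosome biogenesis factor, rose by 0.59 ± 0.09 and Itsn1, an endocytic scaffold gene, by 0.63 ± 0.11 (edgeR adjusted p = 0.00035 and 0.00071), and both had a member over their start. Hcfc1, which encodes a chromatin-associated host cell factor on chromosome X, rose by 0.58 ± 0.11 (adjusted p = 0.00089). Smaller log2 rises were seen in Taok2, Ptpn21, Lhx2 and Pkm, from 0.39 to 0.46, and Sox13 rose by 0.66 ± 0.17. With the Xist covariate Pkm and Sox13 did not pass (adjusted p = 0.195 and 0.0618). Of the 28 tested genes whose promoter window a member overlapped, 7 fell and 6 rose. Gse1, which holds 3 members in its body but none within 10 kb of its start, rose by 0.64 ± 0.12 (adjusted p = 0.0013). Regions with the opposite difference also overlapped the bodies of Gse1, Spata13, Tiam2, Itsn1, Taok2, Sox13 and Lhx2. The nearest such region lay 175, 282, 104 and 828 kb from Urb1, Hcfc1, Ptpn21 and Pkm.

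For 51 of the 88 genes the RNA test gave no call. Among them Ccn1, with a region of 4 Vehicle and 0 TSA lists inside the gene, was at 13.3 ± 1.38 CPM with Vehicle and 14.2 ± 2.77 CPM with TSA (adjusted p = 0.613), and Akna, with a pair of members, had 52.5 ± 5.998 and 46.4 ± 3.87 CPM (adjusted p = 0.2013). Racgap1 and Dck, each with a region of 4 Vehicle and 0 TSA lists near the start, had 143 against 125 CPM and 116 against 99.8 CPM (adjusted p = 0.243 and 0.134). Of the study's genes of interest, Eomes, Tbr1, Trnp1, Smarcc1 and Smarcc2 had no member within 10 kb of their start.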

How the data were processed

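The deposited RNA files hold raw read counts per gene from unstranded TruSeq v2 libraries, per the labels' protocols. Per the submitters' processing notes the build was mm10 and the tools included SAMtools. The sources used here give neither aligner nor counter. Counts totalled 6733415 to 20400727 per library. Counting lines for unassigned reads were at 0.

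H3K9ac peaks were called per library with MACS2 2.1.0.20140616 at a q limit of 0.1 against 1 input of 18937878 tags, per the file headers. In the deposited tables, columns give pileup signal at the summit, fold enrichment (a ratio) and −log10 of p and q; they served to rank or describe peaks within a list.

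Peaks of the 8 lists (343095) were merged, and each region was linked to its nearest RefSeq gene start (GRCm38.p6, 27025 genes, of which 20953 matched a symbol of the count files). RNA was tested with edgeR 4.0.16 in R 4.3.3 (filterByExpr, TMM, quasi-likelihood test, no covariate), and Benjamini-Hochberg adjusted p under 0.05 over 15000 genes was called. CPM was computed here on TMM-scaled totals. The test was checked on simulated data. Alternatives were DESeq2 1.42.0, limma-voom 3.58.1, other scaling, filters, covariates, removal of the trend with gene span, links, list lengths and libraries left out. Members and gene lists were chosen with earlier results of these data known. Named genes are the 10 strongest regions of 4 Vehicle and 0 TSA lists, the 10 falls and 10 rises of smallest p within 10 kb of a member, genes with most members in their body, up to 4 per gene list, and 6 genes of the study. Gad2, Meis1, Slc32a1, Dlx2, Dlx5, Dlx6, Emp2, Ect2, Racgap1, Dck and the further falls listed were named after their values were seen. Sequence was read for promoters only. Input samples were not analysed here, and 1 result is not reported here.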

Additional observations from a re-analysis of the deposited data

Results flagged for a closer look

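The H3K9ac list of Vehicle 4 stood apart from its group with 22668 peaks, where the other Vehicle lists had 41331 to 43645. This library bears on the set directly, since it was the missing one in 134 of the 175 regions with 3 Vehicle and 0 TSA lists. TSA 4 stood apart in depth with 19920755 tags, against 15365856 to 16018415 in the other TSA libraries. Among the genes named, Pax6 in TSA 4 stood at 123 CPM, above 99.99 to 104 CPM in the other TSA libraries and below every Vehicle library. Xist in TSA 4 stood at 2327 CPM, where TSA 1 to 3 had 0.305 to 1.47 CPM. Meis1 in TSA 1 stood at 10.8 CPM, below 13.95 to 14.1 CPM in TSA 2 to 4. These 5 were singled out because the gap to the nearest library was larger, as a share of the group's range, than Dixon's critical value, among 108 groups of 4 examined. Chance alone singles out about 1 group in 20.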

How the results depend on the processing

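The number of regions less often occupied was 256 at q of 0.05 and 226 at 0.01, 281 when a peak had to cover 50% of the region, 382 on equal lists, 298 on the 11334 peaks of highest q, 140 with gaps of 500 bp closed, 140 to 625 leaving out 1 library, and 637 on equal lists without Vehicle 4. The share at gene starts was 49.5% on equal lists, and 20.8% or 39.6% with limits of 1 or 5 kb; that inside genes was 33.2% on equal lists and 34.3% at 5 kb, and that outside genes 17.3% on equal lists. Near members, 14 genes fell and 7 rose with a limit of 2 kb; 19 rose with a median of −0.085 at 50 kb; 36 rose with a median of −0.0014 for bodies; and 50 fell and 22 rose on equal lists. With the Xist covariate 10 fell and 6 rose, the median was −0.058, and 773 genes fell and 727 rose in all. On equal lists without Vehicle 4, added after seeing the data, 79 fell and 48 rose, with a median of −0.061. Leaving out 1 library of either assay gave 10 to 52 falls, 5 to 40 rises and medians of −0.24 to 0.018 (0.018 without H3K9ac Vehicle 1 and 0.012 without TSA 4); for all genes 2104 to 2891 fell and 1707 to 2702 rose. The cause was not tested. The TSA minus Vehicle difference in tags ran from −1220978 to 2862887, and was also −554728 and −765340, without 1 library. Whether replicate numbers pair the samples was not tested. Correlations between Vehicle and TSA RNA samples were 0.07 to 0.11 for the same number and −0.21 to 0.15 for different numbers. With the replicate as a block 27 genes near members fell and 16 rose, and 2744 and 2598 in all. Xist and Smarcc1 changed sign in some settings without a call: Smarcc1 was at 0.073 and Xist at 0.0034 with the Xist covariate, and Smarcc1 ran from −0.094 to 0.0030 leaving out 1 RNA library. A missing peak in a list does not show that the mark is absent at that depth.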
